A study of Mus musculus with 15 samples.

Results

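The 8 genes described here encode nuclear receptors for retinoids and their relatives: the retinoic acid receptors Rara, Rarb and Rarg, the retinoid X receptors Rxra, Rxrb and Rxrg, and the ROR receptors Rora and Rorb. A CpG belonged to a gene when it lay inside the gene's RefSeq span or within 2 kb of either end, which gave 157 of the 204492 CpGs listed in the files, 149 of them inside a span and 8 in a flank. The family was taken up because a CpG in Rarb and a CpG in Rora were among those with the smallest p-values for lower methylation on the protein restricted diet, and the other 6 genes were then added by name. The diet contrast of Rarb and Rora is therefore described without a test, and the other 6 genes were tested. The 8 genes are part of 13664 genes with at least 3 listed CpGs.

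Sperm came from male mice of strain C57BL/6 in generation G1, and the labels give their diet as Control (7 libraries) or PR, protein restricted (8 libraries). Their DNA was cut at CCGG by the enzyme MspI, treated with bisulfite and sequenced (RRBS), and a cytosine left unconverted was counted as methylated. The labels do not say who ate the diet, the mouse or a parent, and they mention no mutation, transgene or drug in either group. Shared dams, litters or batches are not given either. The p-values set the diet difference against the spread between these libraries, which may be technical, and take the libraries as independent.

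Retinoic acid receptors bind retinoic acid, pair with a retinoid X receptor and act at paired copies of a short DNA half-site. In the testis, retinoic acid starts spermatogonial differentiation and the entry into meiosis, RARA being known for its part in Sertoli cells and RARG for its part in spermatogonia. The ROR receptors bind a single half-site with an AT-rich start. RORA is known for activating the clock gene Bmal1, and RORB for its part in the retina and the brain.

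Promoter sequences are shown first, because the methylation values below come from the gene bodies and flanks and not from these promoters. They come from RefSeq, build GRCm38.p6, and run 5′ to 3′ on the gene's own strand, from 250 bases before an annotated start to 50 bases after it. Capitals mark the MspI sites, where a fragment can begin or end. The 5 windows belong to the receptors whose values the results turn on. Rarb lies on the minus strand (chr14:16575427-16575726), and Rora (chr9:68653536-68653835), Rxra (chr2:27676951-27677250), Rxrb (chr17:34031562-34031861) and Rxrg (chr1:167598112-167598411) on the plus strand.
Rarb: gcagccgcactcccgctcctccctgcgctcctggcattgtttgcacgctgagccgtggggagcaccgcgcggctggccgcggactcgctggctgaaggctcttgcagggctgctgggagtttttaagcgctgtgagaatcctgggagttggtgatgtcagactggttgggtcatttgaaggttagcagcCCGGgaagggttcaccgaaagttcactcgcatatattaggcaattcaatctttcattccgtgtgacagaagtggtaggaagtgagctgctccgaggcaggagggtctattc
Rora: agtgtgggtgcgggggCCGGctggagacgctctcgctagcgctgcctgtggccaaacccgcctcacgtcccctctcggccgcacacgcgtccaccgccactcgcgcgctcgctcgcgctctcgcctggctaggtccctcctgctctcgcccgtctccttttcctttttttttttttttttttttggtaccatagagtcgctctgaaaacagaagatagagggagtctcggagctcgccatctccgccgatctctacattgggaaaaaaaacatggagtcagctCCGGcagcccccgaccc
Rxra: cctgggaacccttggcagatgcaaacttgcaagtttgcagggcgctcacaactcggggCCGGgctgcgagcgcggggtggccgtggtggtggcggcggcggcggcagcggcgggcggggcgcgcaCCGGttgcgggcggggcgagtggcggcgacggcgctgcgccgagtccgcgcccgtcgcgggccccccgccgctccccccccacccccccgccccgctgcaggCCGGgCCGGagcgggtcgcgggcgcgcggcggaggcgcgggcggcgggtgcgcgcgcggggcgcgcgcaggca
Rxrb: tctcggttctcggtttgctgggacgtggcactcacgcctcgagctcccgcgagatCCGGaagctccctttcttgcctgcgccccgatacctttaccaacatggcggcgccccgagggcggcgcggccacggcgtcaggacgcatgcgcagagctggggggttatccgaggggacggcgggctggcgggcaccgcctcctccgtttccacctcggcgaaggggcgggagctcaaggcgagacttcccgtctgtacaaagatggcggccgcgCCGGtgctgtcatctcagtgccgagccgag
Rxrg: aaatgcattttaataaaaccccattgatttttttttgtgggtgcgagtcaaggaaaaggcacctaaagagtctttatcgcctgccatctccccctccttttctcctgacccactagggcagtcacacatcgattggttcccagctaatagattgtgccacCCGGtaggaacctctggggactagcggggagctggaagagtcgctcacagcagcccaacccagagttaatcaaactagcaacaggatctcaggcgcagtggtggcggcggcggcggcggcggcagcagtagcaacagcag

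The Rarb window also holds the kind of element through which retinoic acid receptors act. It is a direct repeat of half-sites 5 bases apart, and it starts at -53 from the start, at chr14:16575503-16575539 with its margins on the minus strand. Capitals here mark both half-sites and the 5 bases between them.
Rarb element: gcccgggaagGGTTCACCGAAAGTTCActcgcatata
The half-site was searched on both strands with the letters AGGTCA or AGTTCA, and also GGGTCA or GGTTCA. The repeat with 5 bases between was found in 1 of 16 windows of the 8 genes and in 32 of 32851 windows of all genes (0.0974%). Repeats with 2 bases or 1 base between occurred in 0 of the 16 windows, against 0.268% and 0.222% of all. The letters TAGGTCA or TGGGTCA, the ROR type, which contain the half-site, were in 2 of the 16 windows (Rarb and Rxrg) and in 6.45% of all, and the single half-site was in 7 of 16 (43.8%) and in 43.7% of all. A match describes letters in this window and not binding.

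No listed CpG lay in any promoter window of the 8 genes. The 16 windows hold 306 CpGs and 32 MspI sites, and 13 of them have at least 1 MspI site, yet 0 have a CpG with a methylation value. Rara windows 1 and 2 overlap, and the bases they share are counted in both, here and in the counts below. Across all genes, 322 of 32851 windows (0.980%) held a listed CpG. Among 8701 windows with 20 or more CpGs, 2 did (0.0230%), and the 7 such windows of the receptors, with 228 CpGs, were among those without. The Rxra window shown above is the densest, with 55 CpGs, 4 MspI sites and a GC content of 83.0%. The lowest count of methylated reads at any listed CpG in any library is 11, so a CpG with little methylation at ordinary depth is not listed. A promoter CpG that was little methylated and one that was not read cannot be told apart here.

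**Figure D1:**
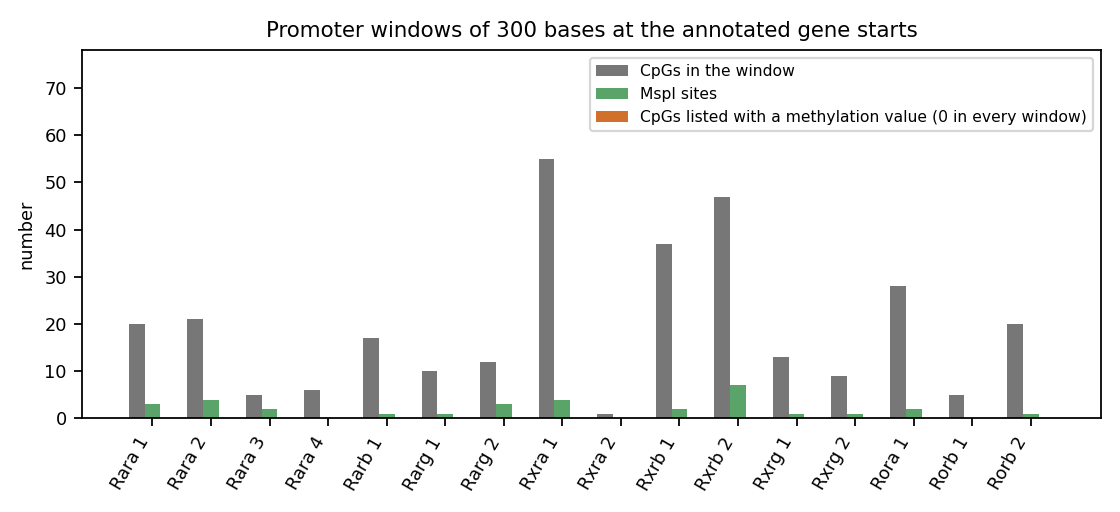
Number of CpGs (grey), MspI sites (green) and CpGs with a methylation value (orange, 0 in all) in each of the 16 promoter windows of 300 bases, numbered within a gene by increasing genome position. The Rxra 1 window holds 55 CpGs and the Rora window 28, and none has a value.

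The nearest values to a start came from Rxrg and Rxrb. In Rxrg the nearest listed CpG lay 844 bp before the start and was methylated at 80.9%, and in Rxrb it lay 1218 bp before the start at 96.4%. For Rora the nearest listed CpG was 21444 bp after the start at 98.3%. For the Rarb promoter shown, it was 48002 bp upstream, inside the longer Rarb span, at 82.9%. Grouped by distance to a start in the RefSeq promoter table, the 7 CpGs under 2 kb averaged 86.2% methylation, the 17 from 2 to 10 kb 94.5%, the 35 from 10 to 50 kb 94.6% and the 98 beyond 50 kb 95.6%. The first of these groups comes from Rxrb and Rxrg alone and the last from Rarb and Rora alone. Distance and gene cannot be told apart there.

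The listed CpGs of the receptor genes were heavily methylated, as a list that leaves out CpGs of little methylation partly ensures. Over their 157 CpGs the mean methylation was 94.8% and the median 98.0%, beside 95.3% and 98.2% over all listed CpGs. Of these 157, 135 (85.99%) were at 90% or more, against 89.66% of all listed CpGs and 91.87% of the 135777 CpGs in or near any gene. There were 10 CpGs under 80% (6.37%, beside 5.59% of all listed CpGs and 4.45% of those in or near any gene). Of these 10, 8 were in Rora, 1 in Rxrb and 1 in Rxrg, and 1 was under 50%. Rora alone supplied 54.8% of the CpGs, so shares over all 8 genes lean on it.

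Gene by gene, the level over the 15 libraries rose from Rxrg at 90.03% ± 2.75 (SD, n = 15) through Rxrb at 90.9% ± 1.79 and Rara at 93.9% ± 1.83 to Rora at 95.1% ± 0.734 and Rarb at 95.1% ± 0.765. Rxra at 97.7% ± 1.88, Rorb at 97.9% ± 0.746 and Rarg at 98.1% ± 1.24 stood highest, near the median gene of the whole table at 97.8%. Neighbours in this order were compared within each library. Rara was above Rxrb in 14 of 15 libraries, by 2.995 ± 2.499 percentage points, and Rxra was above Rarb in 14 of 15, by 2.62 ± 2.11. The other 5 neighbouring pairs differed by less than the SD of their difference. By unweighted means the genes thus fall into 3 tiers, drawn after their levels were seen, with Rxrg and Rxrb lowest. Weighted by coverage, Rxrg at 92.4% lay between Rxrb at 90.35% and Rora at 93.9%, so the tiers depend on the weighting.

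**Figure D2:**
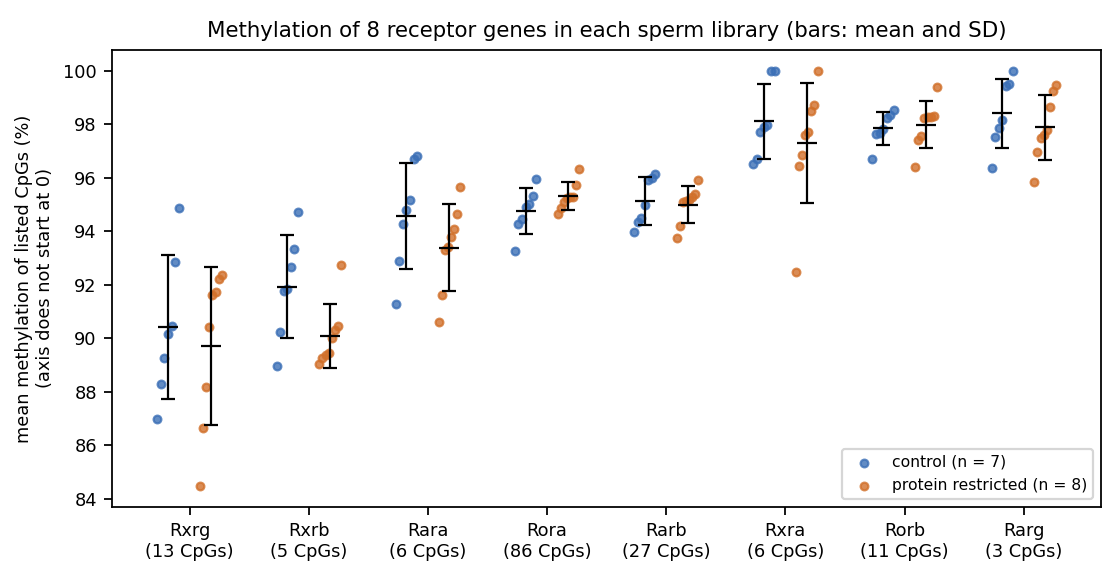
Mean methylation in percent of the listed CpGs of each gene in each library (points, ordered by value within a diet), with the mean and SD of 7 control and 8 protein restricted libraries as bars; the axis does not start at 0. The diets overlap in every gene, and Rxrg and Rxrb stand lowest.

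Among the retinoic acid receptors, Rara, whose receptor acts in Sertoli cells, spans chr11:98927800-98974942 and had 6 listed CpGs with a mean coverage of 44.7 reads. Control libraries ran from 91.3% to 96.8% with a median of 94.8%, and protein restricted ones from 90.6% to 95.7% with a median of 93.6%. The ranges overlap over most of their length. The lowest CpG, at chr11:98954253, averaged 89.4%, and the CpG with the smallest p, 42 bp further on at chr11:98954295, averaged 93.8% ± 4.10 in control and 89.5% ± 2.27 in protein restricted libraries (unadjusted p = 0.0894, quasi-binomial test). Of the 6 CpGs, 2 lie within 2 kb of the snRNA gene Gm22061.

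Rarb, the receptor gene that retinoic acid itself induces through the element shown above, spans chr14:16430839-17082331 with 27 CpGs in 13 groups that are more than 200 bp apart. Control libraries lay between 94.0% and 96.1% (median 94.99%) and protein restricted ones between 93.7% and 95.9% (median 95.1%). The ranges coincide almost fully. Under 90% there were 6 Rarb CpGs, and 3 of these sat together within 103 bp from chr14:16623478, where the mean was 85.5% ± 2.97. A single CpG at chr14:17025506 averaged 84.95% and varied most, from 56.5% in control replicate 6 to 100% in 1 control and 1 protein restricted library. Its dispersion, the variance between libraries divided by that expected from counting reads, was 2.80, where 1 is counting error alone. Of the others, 1 lies inside the pseudogene Tpi-rs9 and averaged 89.2%, and reads there could come from a copy.

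The Rarb CpG that brought the gene in, chr14:17064245, was methylated at 100% in 7 of 7 control libraries. The protein restricted libraries averaged 94.0% ± 4.41 and ran from 84.6% to 100%, with 100% in 1 of 8. The groups touch only at 100%, at a mean coverage of 24.7 reads, where 1 unmethylated read moves a library by several points. A CpG 176 bp away, chr14:17064421, averaged 99.2%.

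Rarg, whose receptor acts in spermatogonia, spans chr15:102234938-102257522 and had 3 CpGs within 156 bp. They averaged 97.2% to 98.9%, and no library's gene mean fell below 95.8%. Control libraries ran from 96.4% to 100% (median 98.1%) and protein restricted ones from 95.8% to 99.5% (median 97.7%). These ranges overlap almost fully. Mean coverage was the highest of the 8 genes, at 49.6 reads.

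Of the retinoid X receptors, the common partners of the family, Rxra spans chr2:27676445-27763319 and had 6 CpGs at 96.3% to 99.1%. Control libraries ran from 96.5% to 100% (median 97.9%) and protein restricted ones from 92.5% to 100% (median 97.7%). The groups overlap. The CpG at chr2:27739918 was at 78.6% in the lowest library, protein restricted replicate 4, and at 100% in 5 of the 8. Coverage was lowest in this gene, at 23.8 reads on average.

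Rxrb spans chr17:34031812-34038403, the shortest of the 8 genes at 6.59 kb, and 4 of its 5 CpGs lie before its start, inside the neighbouring gene Slc39a7, a zinc transporter (chr17:34028266-34031690). The CpG inside the Rxrb span averaged 97.9%. The 4 upstream CpGs lie within 67 bp and share reads. The one at chr17:34030528, at -1.28 kb from the span's start, averaged 69.6%, and the other 3 averaged 92.6% to 98.1%, the nearest only 17 bp away. Control libraries ran from 55.2% to 89.5% at that CpG (median 76.3%) and protein restricted ones from 56.1% to 73.7% (median 64.1%). Of the 7 control libraries, 4 lie above every protein restricted one, and control replicate 2 lies below them all.

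Rxrg spans chr1:167598362-167639623 and had 6 of its 13 CpGs under 90%. Its mean was the lowest of the 8 genes, but weighted by coverage it was 92.4%, above Rxrb at 90.35%. The CpGs under 90% fall in 2 places. Before the gene, 3 CpGs within 36 bp at -0.856 kb averaged 82.2% ± 6.59 over the libraries, at 80.8% ± 8.98 in control and 83.5% ± 3.75 in protein restricted libraries, with a mean coverage of 19.6 reads. Inside it, 5 CpGs within 241 bp from chr1:167605865 averaged 86.5% ± 4.97, at 88.7% ± 2.59 and 84.6% ± 5.86. The lowest of these 5, chr1:167606052, averaged 74.0%, while chr1:167605865 and chr1:167606065 averaged 93.1% each, above 90%. The diets thus lean opposite ways in these 2 places, which were picked out after their levels were seen and were not tested. The other 5 Rxrg CpGs, from 8.95 kb after the start onwards, were at 97.4% to 98.8%.

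Rora, the largest of the 8 genes at 735 kb (chr9:68653404-69388246), held 86 CpGs in 33 groups. Only 71 of the 13664 genes had at least 86 listed CpGs. Its 78 CpGs at 90% or more had means of 93.5% and above, and the remaining 8 lay between 37.3% and 75.7%, so no CpG fell between 75.7% and 93.5%. These 8 were in 3 places, described here after their values were seen.

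In the first place, 22.02 kb after the start, a single CpG at chr9:68675424 averaged 37.3%, the lowest of all 157. It ran from 28.3% to 44.9% in control libraries (median 41.5%) and from 20.9% to 51.8% in protein restricted ones (median 37.6%), at a mean coverage of 70.5 reads. The protein restricted range encloses the control range. The other 6 CpGs of the same 195 bp averaged 97.7% to 99.4%, and the nearest was 47 bp away. Another lone dip lay 582 kb after the start at chr9:69235261, where the mean was 56.2% and the CpG 87 bp before it averaged 98.4%. It ran from 39.6% to 75% in control and from 45.3% to 75% in protein restricted libraries, a full overlap. Dispersion was 2.66 at the first and 2.46 at the second of these CpGs, beside a median of 0.955 over all listed CpGs. No sequence around these CpGs was used here, so whether a base variant lies at them was not tested.

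The remaining place was of another kind. All 6 CpGs of a stretch of 156 bp (chr9:68792401-68792556), 139 kb after the start, averaged 66.7% to 75.7%. The stretch mean was 71.2% ± 8.14 over the 15 libraries at a mean coverage of 52.8 reads. Control libraries ran from 54.5% (replicate 5) to 82.1%, with a median of 72.7%, and protein restricted ones from 63.8% to 87.1% (replicate 4), with a median of 72.4%. The medians nearly coincide, while the means were 69.1% ± 9.35 and 73.0% ± 7.04, and the ranges overlap. Over the 15 libraries the 6 CpGs correlated with each other at Pearson r between 0.744 and 0.942, as a description, since they share reads and libraries. Of the Rora CpGs elsewhere, 6 lie inside the lncRNA gene Gm31262 and 3 inside the lncRNA gene Gm15511.

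**Figure D3:**
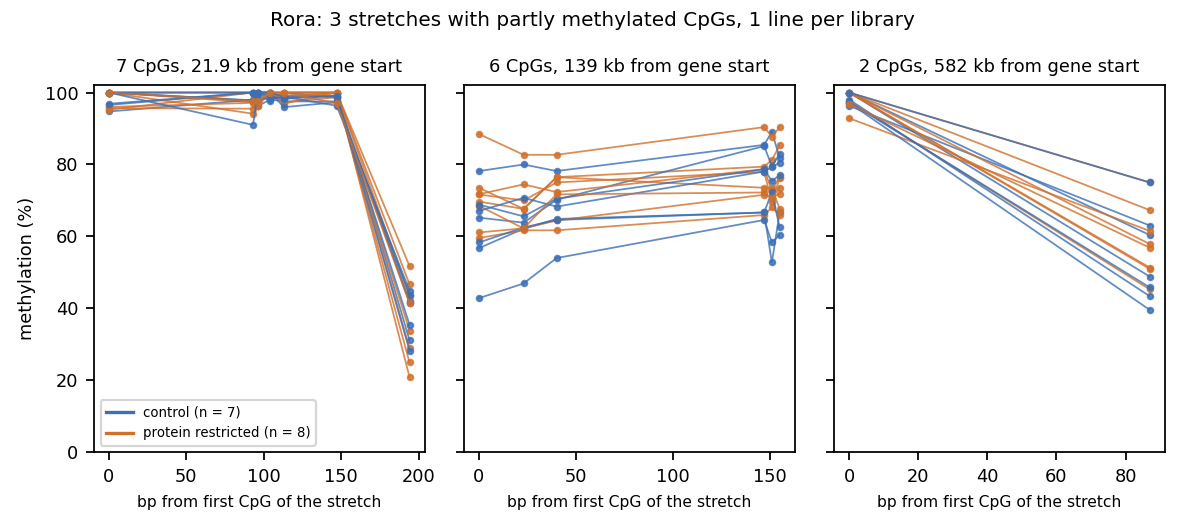
Methylation in percent of each CpG in 3 stretches of Rora against the distance in bp from the first CpG, 1 line per library (blue, 7 control; orange, 8 protein restricted). The first and last panels show single CpGs at 37.3% and 56.2% on average beside nearly full neighbours, and the middle panel shows 6 CpGs that differ between libraries together.

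The CpG that brought Rora in, chr9:68999270, was at 100% in 7 of 7 control libraries. The protein restricted libraries averaged 96.5% ± 3.33, from 91.5% to 100%, with 3 of 8 at 100%. The groups meet at 100%, as at the Rarb CpG. Over the whole gene the control libraries ran from 93.3% to 96.0% (median 94.9%) and the protein restricted ones from 94.7% to 96.3% (median 95.3%). The mean over the gene thus leaned the other way from this CpG, by 0.566 points higher in protein restricted libraries, with 47 CpGs higher and 39 lower. The lean was not even along the gene. The median difference over its CpGs was 0.169 points, while the mean of the stretch of 6 CpGs was 3.90 points higher in protein restricted libraries. That stretch was picked after its level was seen and was not tested. Its medians were 72.7% in control and 72.4% in protein restricted libraries. The dispersion of the summed Rora counts was 5.17, against 1.16 for the median gene. Rora sums 86 CpGs, where the median over genes was 6, so these values are not like for like.

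Rorb spans chr19:18930609-19111196 and had 11 CpGs, all at 95.2% or more, with 1 at 100% in all 15 libraries. Control libraries ran from 96.7% to 98.6% (median 97.8%) and protein restricted ones from 96.4% to 99.4% (median 98.3%), so the control range lies inside the protein restricted one. The CpG with the smallest p, chr19:19022030, averaged 95.3% ± 4.86 in control and 99.0% ± 1.91 in protein restricted libraries (unadjusted p = 0.0869, quasi-binomial test).

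**Figure D4:**
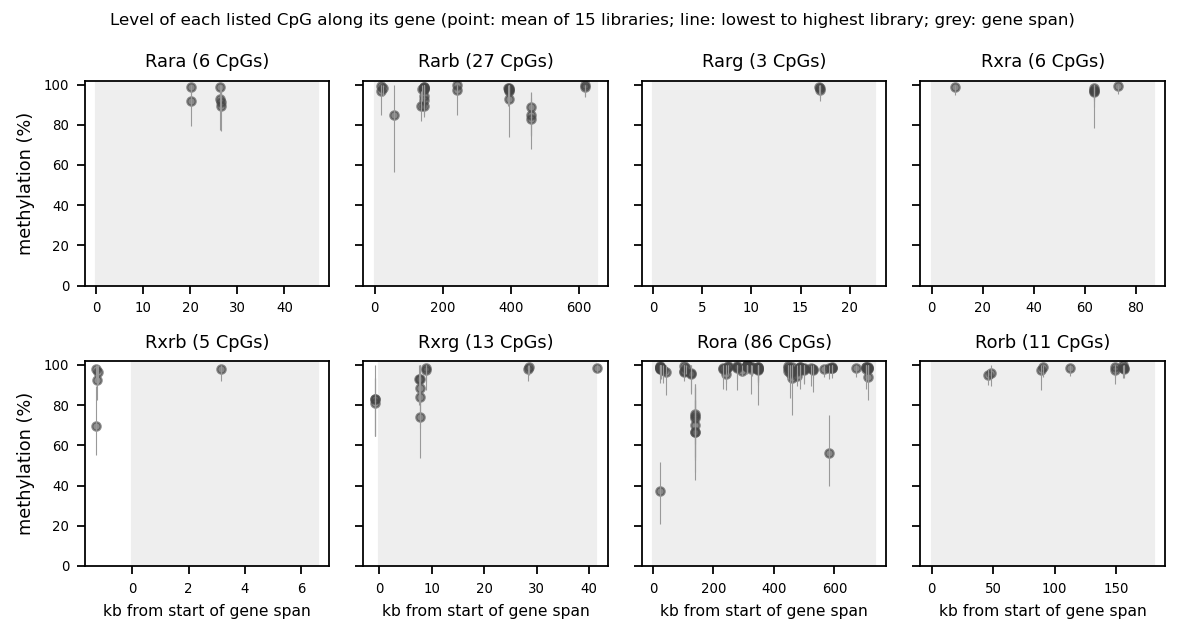
Mean methylation in percent of every listed CpG (points; lines run from the lowest to the highest library) against its distance in kb from the start of the gene span, along the gene's strand, with the span in grey. Most CpGs sit above 90%, and of the 22 below it 8 are in Rora, 6 in Rarb, 6 in Rxrg, 1 in Rxrb and 1 in Rara.

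The limit of 2 kb decides the level of some genes. For Rxrb the outermost included CpG, 716 bp inside the limit, was the one at 69.6%, and the first one beyond it, by 10 bp, was at 98.6%. The first CpG before the Rarg start lay 1645 bp beyond the limit at 80.4%, and the outermost of Rxrg lay 1121 bp inside it at 82.9%.

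The question of the diet comparison was whether sperm of the protein restricted group differed in methylation at these genes. None of the CpGs was called. A quasi-binomial test of read counts, adjusted over all listed CpGs by the Benjamini-Hochberg method, called 0 of 204492 (0%) at an adjusted p under 0.05, and so 0 of 157. At an unadjusted p under 0.05 it counted 7754 CpGs (3.79%) of the whole table and 8 of the 157 (5.10%), 3 higher and 5 lower in protein restricted libraries. Of these 8, 7 were in Rora and 1 in Rarb, whose choice used this contrast, so nothing is read from them. In the other 6 genes 0 of 44 CpGs passed, also unadjusted. limma on logit methylation likewise called 0 CpGs after adjustment. The 7 in Rora went both ways, from -3.45 points at the chosen CpG to 8.56 points at chr9:69111890 (89.0% ± 7.83 in control, 97.5% ± 3.04 in protein restricted libraries), a CpG named after its values were seen.

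Summed over each gene, the same test called 0 of 13664 genes (0%) and 416 (3.04%) unadjusted. None of the 6 genes tested here was among the 416. limma on gene means called 0 genes. By the exact permutation test of the gene mean, 691 genes (5.06%) had an unadjusted p under 0.05, and 1 of the 6 tested receptors did, Rxrb.

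For the retinoic acid receptors, the protein restricted minus control difference was -1.17 percentage points in Rara (94.6% ± 1.99 and 93.4% ± 1.62, 95% interval -3.18 to 0.861, exact two-sided permutation p = 0.230). In Rarg it was -0.520 points (98.4% ± 1.30 and 97.9% ± 1.21, interval -1.94 to 0.884, exact permutation p = 0.429). Rarb, described only, had means of 95.1% ± 0.889 and 94.99% ± 0.695, a difference of -0.132. Both tested intervals include 0, and each leaves room for a fall of more than 1 point.

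In the retinoid X receptors, Rxrb differed by -1.86 points (91.9% ± 1.92 and 90.1% ± 1.19, 95% interval -3.61 to -0.0935, exact permutation p = 0.0412), with 7 of 8 protein restricted libraries below the control mean. Adjusted over all 13664 genes this p was 0.972. The difference rested on the CpG at 69.6%, inside Slc39a7: without it the difference was -0.163 (exact permutation p = 0.855). That CpG also had the smallest p of the gene in this contrast (unadjusted p = 0.0714, quasi-binomial test). The value without it is therefore a description and not a separate test. The CpG in the Rxrb span alone gave 0.337 (exact permutation p = 0.843). Leaving out 1 library moved the difference between -2.35 and -1.39, and p stayed below 0.05 only without control replicate 1, control replicate 2 or protein restricted replicate 7. Rxra differed by -0.828 points (98.1% ± 1.41 and 97.3% ± 2.24, interval -2.98 to 1.18, exact permutation p = 0.452), and by -0.141 without protein restricted replicate 4. Rxrg differed by -0.701 (90.4% ± 2.69 and 89.7% ± 2.94, interval -3.92 to 2.47, exact permutation p = 0.637). The Rxrg interval is the widest of the 6, and its difference was -1.90 for the span without flanks and 0.277 when weighted by coverage.

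Of the ROR receptors, Rorb differed by 0.132 points (97.9% ± 0.618 and 98.0% ± 0.882, interval -0.740 to 0.998, exact permutation p = 0.754), the narrowest interval of the 6. Rora, described only, averaged 94.7% ± 0.860 in control and 95.3% ± 0.523 in protein restricted libraries. Without the CpG that brought them in, the differences were 0.0923 in Rarb and 0.614 in Rora.

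**Figure D5:**
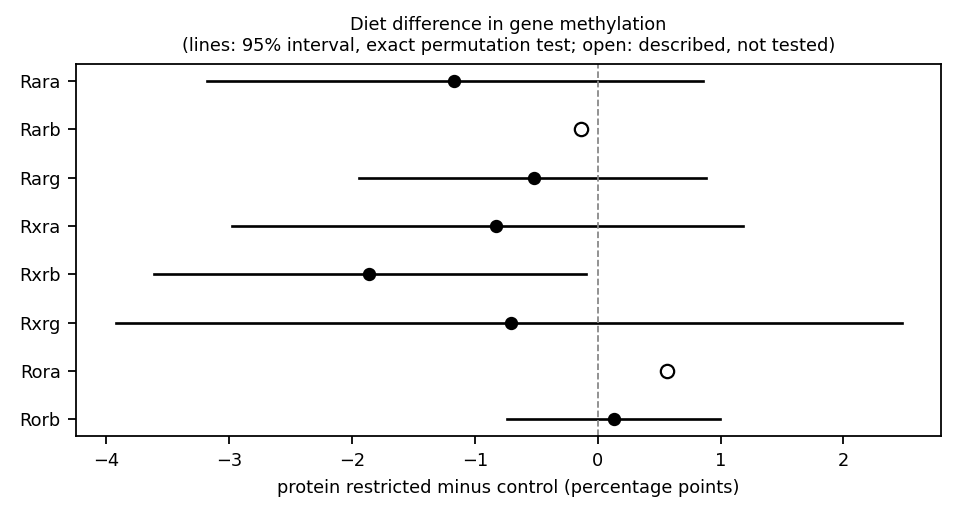
Protein restricted minus control difference of the gene mean in percentage points. Filled points carry the 95% interval from the exact permutation test, and open points, Rarb and Rora, are described without a test; 5 of the 6 intervals include 0 and that of Rxrb ends at -0.0935.

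The other genes of the pathway, in lists of genes chosen by their function, showed no called gene either. Of 29 genes for retinoid transport, synthesis and breakdown, 16 had at least 3 listed CpGs, 0 were called and the median difference was 0.148 points. Of 19 receptor coactivators and corepressors, 15 could be tested, 0 were called and the median was -0.0804. Of 20 ROR and clock genes, 12 could be tested, with 0 called and a median of 0.148, and of 41 other nuclear receptors 27 could be, with 0 called and a median of -0.0244. Of 8 retinoic acid responsive germ cell genes, 4 could be tested, with 0 called and a median of 0.0850. The median over all 13664 genes was 0.00489. Unadjusted, 2 of the 72 genes in these lists (2.78%) passed 0.05, beside the 3.04% of all genes.

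Those genes were Dhrs9 and Ciart. Dhrs9, a retinol dehydrogenase, averaged 92.7% ± 2.64 in control and 96.8% ± 1.80 in protein restricted libraries over 4 CpGs, with 8 of 8 protein restricted libraries above the control mean (quasi-binomial p = 0.00169, adjusted p = 0.9992). Ciart, a repressor in the clock, averaged 99.1% ± 1.07 and 97.4% ± 1.28 over 3 CpGs, with 8 of 8 below the control mean (quasi-binomial p = 0.0363, adjusted p = 0.9992). Neither passed adjustment over all genes.

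By level, the lowest of these pathway genes was Aldh1a1, a retinaldehyde dehydrogenase that makes retinoic acid, at 80.1% ± 4.18 in control and 81.1% ± 1.44 in protein restricted libraries over 7 CpGs. Hnf4g, an orphan receptor, was at 84.96% and 85.53% over 3 CpGs, and Med1, the Mediator subunit that nuclear receptors bind, at 91.0% and 88.4% over 4. Kit, the stem cell factor receptor of differentiating spermatogonia, was at 97.0% and 97.3% over 41 CpGs, and Rec8, a meiotic cohesin, at 97.7% and 98.3% over 3. These genes were picked in part for low levels. The median level of each list lay between 97.2% and 98.2%, near the median gene of the whole table at 97.8%.

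Across the 15 libraries, the gene whose mean moved most like a receptor's was sought among 4259 genes with at least 10 listed CpGs, for the 4 receptors with as many. It was Cbfa2t3 for Rarb (Pearson r = 0.757), Ets2 for Rxrg (0.799), Slc44a2 for Rora (0.770) and Cdk6 for Rorb (0.844). Each is the highest value over all genes compared, in libraries that share depth and handling, and is given as a description. The mean of all other CpGs in a library correlated with Rora at 0.532 and with Rxra at -0.302, the extremes of the 8 genes.

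For the whole table, total counts per library ran from 7846118 to 11841657 in control and from 6650912 to 10712016 in protein restricted libraries. Over 105 pairs of libraries, the mean chi-square per CpG lay between 1.07 and 1.85, where a value near 1 is counting error alone. Whether any pair differed beyond sampling noise was not tested. The tissue label could not be checked from these files: 0 of 17 maternally methylated imprinted genes and 2 of 14 germline genes (Piwil1 at 98.4%, Sycp1 at 32.9%) had a listed CpG within 1 kb of either end, where 12.4% of all genes did.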

How the data were processed

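Sperm DNA was profiled in 7 control and 8 protein restricted libraries, grouped by the diet label, with replicates numbered in accession order. The deposited files give counts of methylated reads and of all reads per CpG on mm10, unnormalized. The submitters' processing notes name Bismark 0.7.12 and Bowtie2 2.1.0 with no role, as they do mm10. In the sources used here, no trimming, filter or strand merging is given. The lowest methylated count in any file is 11, so the coverage minimum of 10 removed none, and the 691 listed positions inside promoter windows all fell on the C of a CG.

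Percent methylation is methylated over total counts, and a gene's value is the unweighted mean over its listed CpGs. CpGs, and counts summed per gene, were tested with a quasi-binomial logistic model on diet (F test, dispersion of at least 1, Benjamini-Hochberg adjustment over the whole table). Gene means were compared by an exact two-sided permutation test over 6435 assignments of the libraries, whose smallest p is 0.000155, with 95% intervals by inverting it. The scripts were tested on simulated data. Python 3.11.15, SciPy 1.17.1, R 4.3.3 and limma 3.58.1 were used. Total counts ran from 6650912 to 11841657 per library; reads carry no molecular identifiers, so counting error is a lower limit.

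The members and the gene lists were chosen with earlier results of these data known. All 8 receptors were named. For each receptor, rules picked the CpG of smallest p, the CpG of lowest level and CpGs under 80% (up to 5 per gene). In each list they picked the 2 genes of lowest level and the 2 of smallest p among those with at least 3 CpGs. Only some of these picks are given above, along with some CpGs outside the rules. Alternatives were a coverage minimum of 20, limma, spans without flanks, coverage weighting, averaging libraries with consecutive title numbers, and leaving out each library. RefSeq gene spans and promoters were used without a genome; exons, introns and UTRs were not analysed here.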

Additional observations from a re-analysis of the deposited data

Results flagged for a closer look

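In 3 of 50 groups examined, 1 library stood apart from the others of its diet, where chance gives about 1 in 20. The Rxrb gene mean was 92.7% in protein restricted replicate 7, and 89.0% to 90.5% in the other 7. The Rarb CpG at chr14:16623478 was 95.7% in control replicate 7 and 78.9% to 85% in the other 6 control libraries. The Rorb CpG at chr19:19065236 was 90.2% in control replicate 5 and 95% to 97.8% in the other 6.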

How the results depend on the processing

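Counts of called CpGs and genes stayed at 0 by both methods. The number of receptor CpGs at an unadjusted p under 0.05 was 8 as reported and 4 with a coverage minimum of 20, which leaves fewer CpGs to count. It was 12 by limma on logit methylation, and from 6 to 11 with 1 library left out. The Rxrb difference, -1.86, was 0.337 for the span without flanks. It was -0.163 without its CpG of lowest level, also its CpG of smallest p, an alternative chosen after seeing the data. It was -2.06 when weighted by coverage (exact permutation p = 0.0441). Averaging libraries with consecutive title numbers gave -1.77 (exact permutation p = 0.0286, the smallest possible there). Leaving out 1 library gave -2.35 to -1.39 (exact permutation p from 0.00999 to 0.0872), below 0.05 without 3 of the 15. The Rxrg difference, -0.701, became 0.277 when weighted by coverage, -1.90 for the span without flanks and -0.154 with a coverage minimum of 20, and ran from -1.27 to 0.0461 with 1 library left out, above 0 without control replicate 2 (0.0433) or protein restricted replicate 3 (0.0461). The Rorb difference became -0.121 when weighted and -0.636 with a coverage minimum of 20, and ran from -0.0725 to 0.359 with 1 library left out, below 0 without protein restricted replicate 1 (-0.0725) or control replicate 5 (-0.0592). The Rarb difference, -0.132, became 0.195 with a coverage minimum of 20 and 0.0923 without its CpG of smallest p (chosen after seeing the data), and ran from -0.321 to 0.0483 with 1 library left out, above 0 without protein restricted replicate 1 or control replicate 3, 4 or 7. The Rxra difference, -0.828, was -0.338 when weighted and ran from -1.22 (without protein restricted replicate 6) to -0.141 (without protein restricted replicate 4). With 1 library left out, Rara ran from -1.71 to -0.769, Rarg from -0.859 to -0.227 and Rora from 0.319 to 0.769, with no change of direction. Weighted by coverage, the Rxrg level was 92.4%, not 90.03%, and Rxrb was lowest at 90.35%. The Rora level was 93.9% when weighted by coverage, not 95.1%. Apart from the alternatives that drop CpGs or libraries, the cause was not tested. Rxra and Rxrb had 0 CpGs with 20 reads in every library and give no value there. No paired analysis was possible because replicate numbers were given in accession order and pair nothing.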
